A study of Mus musculus with 2 samples.

Results

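The 10 genes Gata1, Gata2, Zfpm1, Tal1, Ldb1, Runx1, Fli1, Gfi1b, Nfe2 and Mafk encode nuclear factors that direct the megakaryocyte lineage. They were chosen by name, and every probe set whose only gene symbol in the array annotation was one of these was taken: 18 probe sets of 34945 with a single symbol, and 10 genes of 18193. The RNA came from washed platelets, all from the C57BL/6 strain. In Smad4 −/− mice the platelet factor 4 (Pf4) promoter drives a Cre recombinase that removes a loxP-flanked Smad4 in megakaryocytes and platelets. Smad4 f/f mice carry the loxP-flanked gene and are also called wild type in the labels. The design lists 6 mice in each genotype, with 1 array each on the Affymetrix Mouse Genome 430 2.0 platform. Age, sex, whether the Smad4 f/f mice carry Cre, and whether RNA of the mice was pooled are not given in the sources used here.

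Platelets have no nucleus, and their mRNA is inherited from the megakaryocyte that shed them. In that cell GATA1, with its cofactor FOG1 (Zfpm1), drives maturation, while GATA2 acts earlier in progenitors. TAL1 and the adaptor LDB1 join GATA factors in a shared DNA-bound complex, RUNX1 and FLI1 bind beside them at megakaryocyte genes, GFI1B represses, and NF-E2, a dimer of p45 (Nfe2) with a small Maf protein such as MafK, directs the last steps of platelet release. The comparison asks how the transcripts of these factors differ in platelets with the loss of Smad4, the shared partner of the SMAD proteins that carry TGF-beta and BMP signals.

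With 1 array per genotype a difference is one between 2 arrays and has no test; precision is limited by the number of arrays. Signals are the deposited log2 values or their antilogs, called linear signals. Ratios are Smad4 −/− over Smad4 f/f, with signals raised to a floor of 7.18 on the log2 scale (145 linear), set at whichever of the arrays' 60th percentiles was higher. A probe set counted as measured when at least 1 array reached the floor, and a fold with 1 side below it is a lower bound. A gene took the value of its measured probe set with the highest mean signal, and 2-fold served as a rule of size. Of probe sets that are not controls, 38.5% reached the floor in Smad4 −/− and 40.0% in Smad4 f/f. The 3 probe sets of Smad4 itself had log2 ratios from −0.13 to −0.09. Where they lie relative to the deleted part was not analysed here, so they do not check the genotype. As a measure of RNA quality, Gapdh control probe sets gave a 3' over 5' signal of 2.61 in Smad4 −/− and 1.86 in Smad4 f/f, and beta-actin ones gave 1.27 in Smad4 −/− and 1.16 in Smad4 f/f. The part of RNA quality in the differences below was not tested.

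All 10 factors were measured in platelets. By the strongest measured probe set, 7 of them had an absolute log2 ratio under 0.5, beside 68.1% of all measured genes. Ldb1 was the only factor past 2-fold, lower in Smad4 −/−, where its signal lay below the floor. Fli1 was lower by both of its probe sets, just short of 2-fold by the stronger. Mafk was higher by a log2 ratio of 0.70. The other 7 genes had log2 ratios between −0.23 and 0.41 by their strongest measured probe set. Weaker probe sets of Runx1 ran from −0.72 to a bounded 1.19, and the second of Gata2 gave 0.55.

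As a count, 1 of 10 factors was at least 2-fold lower and 0 were higher, beside 3.59% of 11380 measured genes lower and 3.34% higher. In either direction the background was 6.93%, and the count of 1 among 10 is no result about the factors as a group. Of the 18 probe sets, 17 were measured and 15 reached the floor on both arrays. Past 2-fold were 2 of the 17, beside 6.85% of 18099 measured probe sets, with 1 lower (background 3.50%) and 1 higher (background 3.35%). The genes split evenly in sign, 5 above 0 and 5 below. Their median log2 ratio was −0.01, against −0.02 for all measured genes. The absolute log2 ratio was under 0.5 in 7 of 10 factors and in 68.1% of all measured genes. Its median was 0.28 in the factors and 0.33 in all. In whole platelet RNA, fewer cells of a type and less RNA per cell cannot be told apart.

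**Figure D1:**
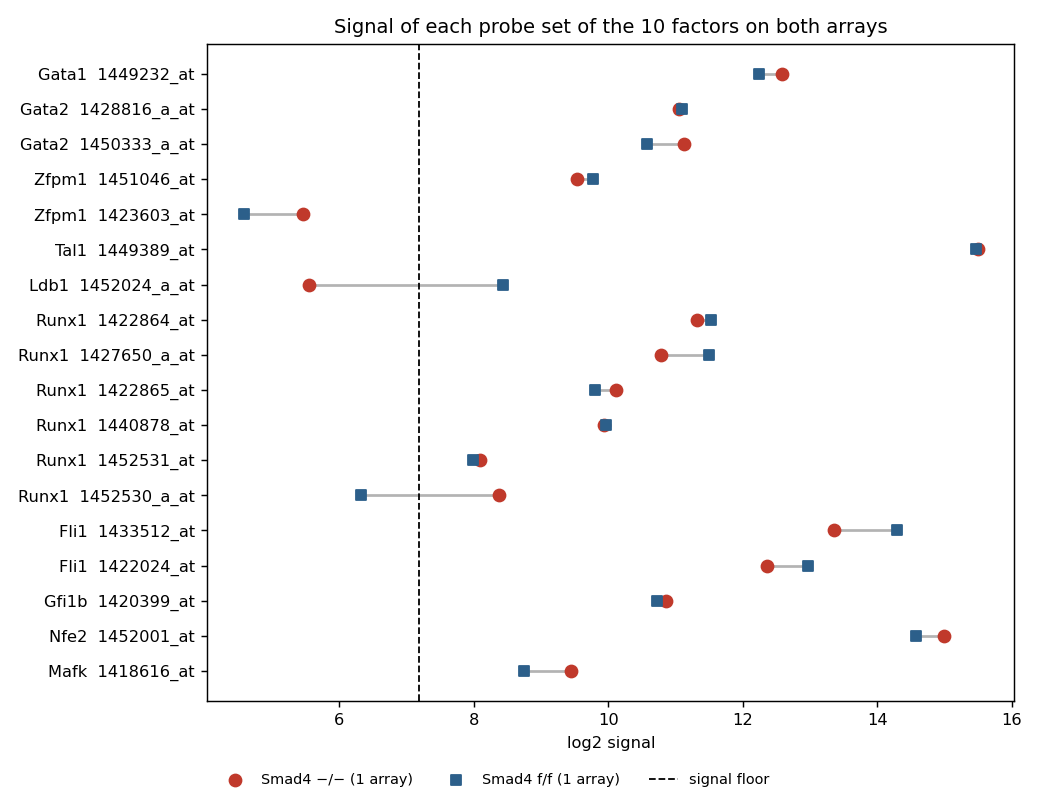
Log2 signal (x axis) of each of the 18 probe sets of the 10 factors, with red circles for the Smad4 −/− array, blue squares for the Smad4 f/f array and the floor of 7.18 as a dashed line. Ldb1 and 1 weak probe set of Runx1 lie on opposite sides of the floor, and the second Zfpm1 probe set lies below it on both arrays.

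No measured probe set of the GATA factors or their cofactor passed 2-fold, and the pair for Gata2 disagreed. Gata1 (probe set 1449232_at), the main activator of megakaryocyte and red cell genes, read a linear signal of 6107 in Smad4 −/− and 4853 in Smad4 f/f. That is a log2 ratio of 0.33, 1.26-fold higher, on a single probe set. Among measured probe sets within 0.5 log2 units of its mean signal, 42.0% had a ratio at least as large in either direction. A ratio of this size was thus common at that signal.

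Gata2, the progenitor factor, had a pair of probe sets that differed in sign. The stronger (1428816_a_at) read 2118 in Smad4 −/− and 2188 in Smad4 f/f, a log2 ratio of −0.05. The other (1450333_a_at) read 2235 in Smad4 −/− and 1525 in Smad4 f/f, a log2 ratio of 0.55. Their mean of 0.25 turned the sign of the gene, as did median centring of the arrays, which gave 0.05. The ratios lay 0.60 apart, more than the SD of 0.44 for a difference between probe sets of one gene with mean log2 signals of 9 or more (1427 genes). Over all signals that SD was 0.68, from a pooled SD of 0.48 within 4252 genes. Gata2 is also a factor of mast cells and of stem and progenitor cells. Of 7 mast cell and basophil markers, Hdc was the only one to reach the floor, in Smad4 −/− (254 against 33.3), and Cpa3, Mcpt8, Fcer1a, Ms4a2, Kit and Cd200r3 lay below it on both arrays. Of 6 stem and progenitor markers, Mecom was the only one above the floor (294 in Smad4 −/− and 218 in Smad4 f/f), with Kit, Cd34, Flt3, Hlf and Procr below it on both arrays. Gata2 itself was above the floor on both.

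Zfpm1, which encodes FOG1, the zinc finger partner that GATA1 needs in megakaryocytes, read 746 in Smad4 −/− and 872 in Smad4 f/f by probe set 1451046_at, a log2 ratio of −0.23. Its second probe set (1423603_at) read 44.3 in Smad4 −/− and 24.0 in Smad4 f/f, below the floor on both arrays, and gives no ratio. The sign of the stronger probe set was the same under all 8 alternatives of scaling, floor and probe sets, from −0.23 to −0.13. Only the changes of scaling could alter this value. A ratio at least as large was seen in 60.7% of probe sets of like signal.

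Tal1 and Ldb1 act in the same complex and read very differently. Tal1 (1449389_at), a basic helix-loop-helix factor, read 46005 in Smad4 −/− and 45033 in Smad4 f/f. The log2 ratio was 0.03, and it was −0.003 after quantile normalisation, so no direction can be given. Ldb1 (1452024_a_at), the adaptor that bridges TAL1 and GATA1 and links enhancers to promoters, read 46.7 in Smad4 −/− and 348 in Smad4 f/f. It was at least 2.39-fold lower in Smad4 −/−, a bounded log2 ratio of −1.26.

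The Ldb1 value rests on a single probe set of weak signal and on the choice of floor. A floor at the 75th percentile gave a ratio of −0.42, one at the 50th gave −1.74, and no floor gave −2.90, where the lower signal stands as deposited. In Smad4 f/f the log2 signal was 8.44, which is 1.26 above the floor. Among 4394 measured probe sets of like mean signal, 6.08% passed 2-fold and 2.14% had a ratio at least as large as that of Ldb1. The mean log2 signal of Ldb1, 6.99, is below the floor. The filter and the floor thus shape these shares, which cannot show how unusual the Ldb1 ratio is.

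**Figure D2:**
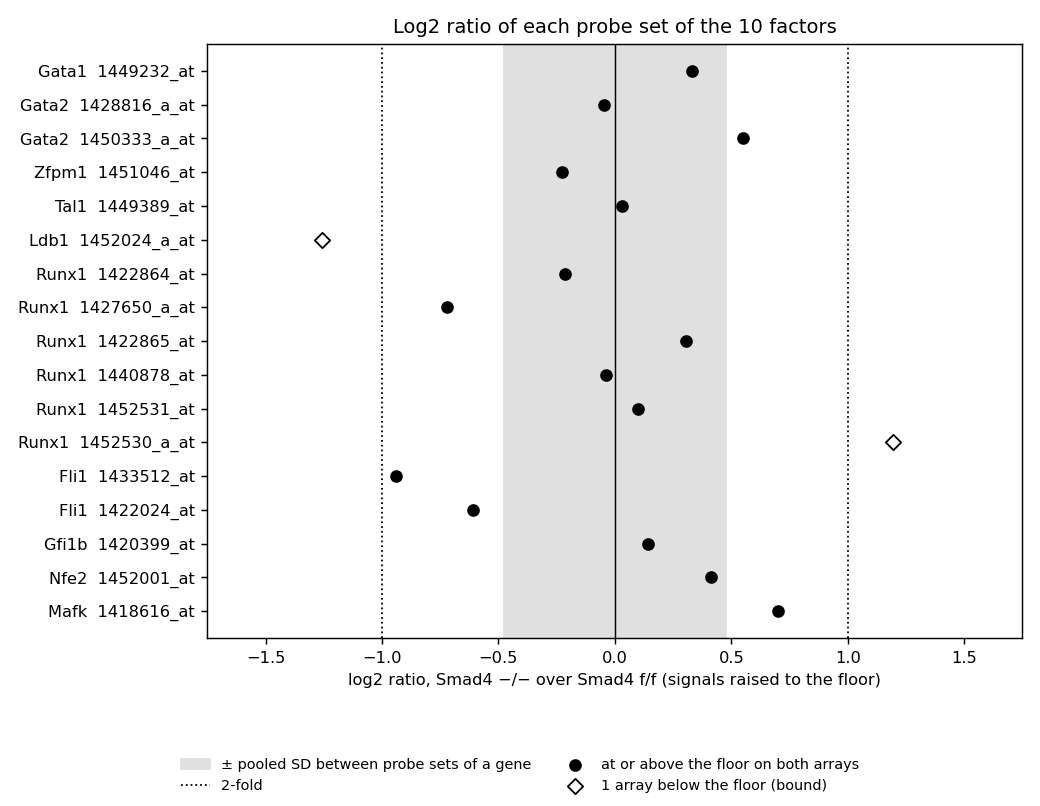
Log2 ratio of Smad4 −/− over Smad4 f/f (x axis) for the 17 measured probe sets, with filled circles where both arrays reached the floor and open diamonds where 1 did not and the ratio is a bound. The grey band is ± 0.48, the pooled SD between probe sets of one gene, and dotted lines mark 2-fold; the 2 values outside them, Ldb1 and 1 Runx1 probe set, are both bounds.

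Sequence upstream of the transcription start is given for the genes with a probe set past 2-fold, Ldb1 and Runx1, since the factors are known to act on one another's genes, and for the other windows of the set with a GATA match, in Tal1 and Gfi1b. The choice was made after the values were seen. The windows are the 250 bases before each start site annotated by RefSeq on GRCm38.p6, printed 5′ to 3′ on the strand of the gene. Of the 10 factors, 8 matched the promoter table, with 13 windows, and Fli1 and Nfe2 did not. Capitals mark matches on either strand to short motifs of the factors and of SMAD proteins. The GATA motif is the letters GATA with A or T before and A or G after them, and RUNX proteins were searched as TGTGGT. The ETS family was searched as CCGGAA, the E-box preferred by TAL1 as CAGNTG, and NF-E2 as TGAGTCA. The letters for GFI proteins were AAATCA and those for the SMAD box CAGAC. None of these matches overlap each other in the windows shown.
Ldb1 upstream start, chr19:46045312-46045561, minus strand: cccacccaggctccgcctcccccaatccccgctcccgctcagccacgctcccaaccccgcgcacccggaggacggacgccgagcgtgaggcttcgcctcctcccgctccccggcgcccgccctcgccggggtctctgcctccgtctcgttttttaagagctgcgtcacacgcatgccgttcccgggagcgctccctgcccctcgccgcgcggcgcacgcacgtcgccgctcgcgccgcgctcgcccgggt
Ldb1 middle start, chr19:46039622-46039871, minus strand: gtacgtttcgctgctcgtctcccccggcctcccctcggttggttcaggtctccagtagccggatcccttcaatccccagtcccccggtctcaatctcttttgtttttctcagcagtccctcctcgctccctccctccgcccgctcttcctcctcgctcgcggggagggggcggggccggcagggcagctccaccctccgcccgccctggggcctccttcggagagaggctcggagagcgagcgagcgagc
Ldb1 downstream start, chr19:46037071-46037320, minus strand: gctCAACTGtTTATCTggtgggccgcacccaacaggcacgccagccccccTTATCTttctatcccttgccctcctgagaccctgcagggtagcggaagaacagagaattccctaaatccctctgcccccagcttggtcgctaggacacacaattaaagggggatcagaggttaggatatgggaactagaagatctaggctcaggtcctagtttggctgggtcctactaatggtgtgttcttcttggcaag
Tal1 upstream start, chr4:115056176-115056425, plus strand: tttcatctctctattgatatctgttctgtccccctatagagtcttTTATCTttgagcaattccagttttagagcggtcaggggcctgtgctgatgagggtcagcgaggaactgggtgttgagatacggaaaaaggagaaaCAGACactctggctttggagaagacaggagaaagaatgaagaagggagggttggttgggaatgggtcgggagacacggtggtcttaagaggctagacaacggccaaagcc

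The downstream Ldb1 window held 2 GATA matches, 240 and 200 bases before the start, and 1 E-box match 247 bases before it, counted from the first base of a match. The upstream and middle Ldb1 windows, with GC contents of 76.0% and 68.4%, held no match to any of the letters searched. The Tal1 window held 1 GATA and 1 SMAD match. Of 32851 windows in the table, 26.5% hold a GATA match, 44.8% an E-box match and 42.2% a SMAD match. Among the 13 windows of the factors, 3 held a GATA match, 3 an E-box match and 3 a SMAD match. A match is a description of letters and shows no binding.

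Runx1, the factor that opens megakaryocyte genes and partners with CBF-beta, had 6 measured probe sets, 3 with a ratio above 0 and 3 below. The strongest (1422864_at) read 2541 in Smad4 −/− and 2948 in Smad4 f/f, a log2 ratio of −0.21. The next (1427650_a_at) read 1755 in Smad4 −/− and 2888 in Smad4 f/f, a log2 ratio of −0.72, 1.65-fold lower. Both of the strongest were thus lower in Smad4 −/−, by different amounts.

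The probe sets 1422865_at and 1440878_at had log2 ratios of 0.31 (1104 in Smad4 −/−, 893 in Smad4 f/f) and −0.04 (975 in Smad4 −/−, 1001 in Smad4 f/f). The weaker 1452531_at read 273 in Smad4 −/− and 255 in Smad4 f/f, a log2 ratio of 0.10. The weakest (1452530_a_at) read 332 in Smad4 −/− and 80.1 in Smad4 f/f, where it lay below the floor, and was at least 2.29-fold higher. It is the only probe set of the 10 factors past 2-fold higher, and 8.42% of probe sets of like signal passed 2-fold. Near the floor that share also depends on the floor and cannot show how unusual the ratio is. Over the 6, the ratios had a mean of 0.10 and an SD of 0.64, and their range was 1.91. Which Runx1 transcripts each probe set reads was not analysed here, and the gene has no single direction in these data.

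Runx1 is transcribed from a distal and a proximal promoter, and a window lies at each.
Runx1 distal start, chr16:92826075-92826324, minus strand: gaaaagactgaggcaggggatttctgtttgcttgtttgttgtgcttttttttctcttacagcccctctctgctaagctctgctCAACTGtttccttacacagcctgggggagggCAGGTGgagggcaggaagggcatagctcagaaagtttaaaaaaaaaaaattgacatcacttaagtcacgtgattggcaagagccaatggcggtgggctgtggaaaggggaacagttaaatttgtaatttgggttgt
Runx1 proximal start, chr16:92697330-92697579, minus strand: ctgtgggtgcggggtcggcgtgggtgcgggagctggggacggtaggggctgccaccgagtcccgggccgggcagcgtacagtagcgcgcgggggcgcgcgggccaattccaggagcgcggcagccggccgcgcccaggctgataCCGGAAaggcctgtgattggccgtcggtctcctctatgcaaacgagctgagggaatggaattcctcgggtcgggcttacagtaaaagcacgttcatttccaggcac

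The distal window held 2 E-box matches and the proximal window 1 ETS match, 106 bases before the start. A RUNX match (TGTGGT) was in 0 of the 13 windows, against 14.0% of all windows, and an ETS match was in 2 of 13, against 12.03%. Cbfb, which encodes the CBF-beta partner of RUNX1, read 1124 in Smad4 −/− and 1765 in Smad4 f/f, a log2 ratio of −0.65 on 1 probe set. It was singled out after its value was seen.

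Fli1, the ETS factor that activates glycoprotein genes late in megakaryocyte maturation, was lower in Smad4 −/− by both of its probe sets. The stronger (1433512_at) read 10455 in Smad4 −/− and 20079 in Smad4 f/f, 1.92-fold lower, a log2 ratio of −0.94. The other (1422024_at) read 5261 in Smad4 −/− and 8023 in Smad4 f/f, 1.52-fold lower, a log2 ratio of −0.61. The ratios lay 0.33 apart, under the SD of 0.44 for such a difference at mean log2 signals of 9 or more, and their mean was −0.78.

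Both Fli1 probe sets are strong, where ratios spread less. Of 1818 measured probe sets with a mean log2 signal of 12 or more, 24 (1.32%) were as low as the stronger one or lower, and 89 (4.90%) as low as the other. Of these 1818, 0.77% were at least 2-fold lower and 2.26% at least 2-fold higher. The shares as low as Fli1 count only the direction seen, unlike the share given for Gata1. The cutoff of 12 was set for this comparison with the Fli1 values known. These shares thus do not measure how unusual Fli1 is. Among probe sets of like signal, a ratio at least as large in either direction was seen in 4.16% for the stronger probe set and 16.1% for the other. Under the 8 alternatives the log2 ratio of Fli1 stayed between −0.97 and −0.78, short of 2-fold in each. The changes of floor could not alter that ratio. The pair of probe sets shares each array, so their agreement says nothing of the spread between mice. Erg, the closest relative of Fli1, read 89.5 in Smad4 −/−, below the floor, and 231 in Smad4 f/f by its stronger probe set, a bounded log2 ratio of −0.67, and its second gave 0.63.

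**Figure D3:**
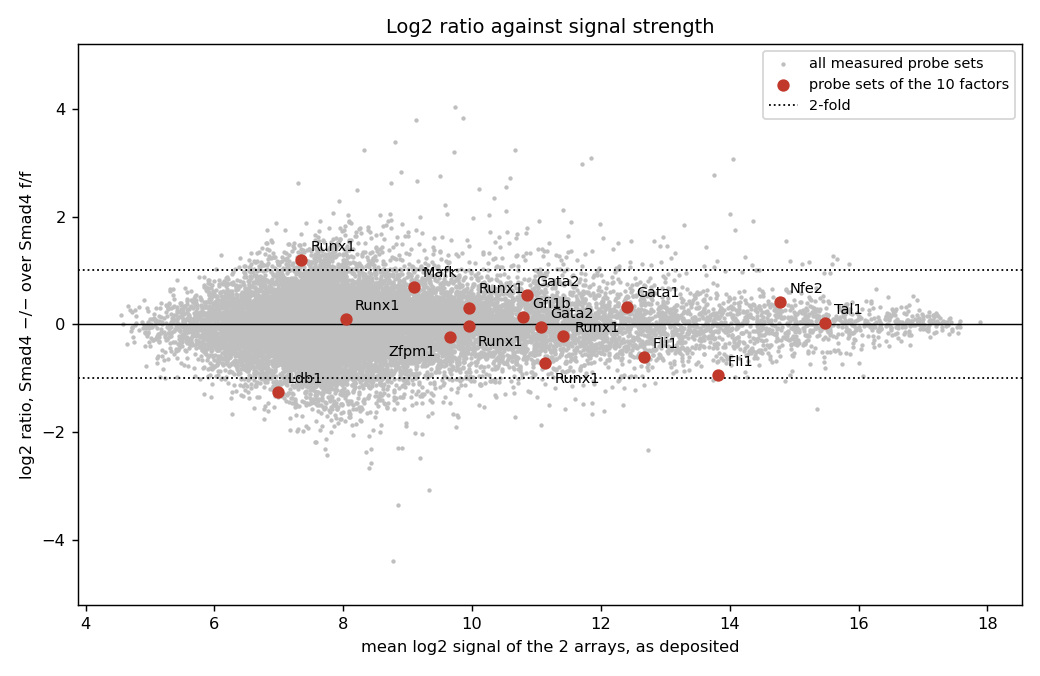
Log2 ratio of Smad4 −/− over Smad4 f/f (y axis) against the mean log2 signal of both arrays (x axis), with all 18099 measured probe sets in grey and the 17 of the factors in red. Fli1 lies low in the cloud at strong signal, Tal1 and Nfe2 lie further right at log2 ratios of 0.03 and 0.41, and Ldb1 and the weakest Runx1 probe set lie at weak signal.

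Gfi1b, a zinc finger repressor needed for platelet and red cell production, read 1864 in Smad4 −/− and 1688 in Smad4 f/f by its only probe set (1420399_at). The log2 ratio was 0.14, between 0.12 and 0.24 under the alternatives, and 72.3% of probe sets of like signal had a ratio at least as large. Its window held 1 GATA match and 1 GFI match (AAATCA), a sequence in 12.4% of all windows and in 1 of the 13.
Gfi1b start, chr2:28621983-28622232, minus strand: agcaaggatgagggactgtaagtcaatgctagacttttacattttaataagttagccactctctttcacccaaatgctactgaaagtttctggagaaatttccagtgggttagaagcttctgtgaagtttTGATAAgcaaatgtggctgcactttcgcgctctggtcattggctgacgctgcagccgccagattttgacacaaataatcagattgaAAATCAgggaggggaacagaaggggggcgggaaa

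Nfe2 and Mafk encode the 2 sides of NF-E2, and both were higher in Smad4 −/−. Nfe2 (1452001_at), the p45 subunit found in blood cells, read 32535 in Smad4 −/− and 24417 in Smad4 f/f, 1.33-fold higher, a log2 ratio of 0.41. Of the 1818 strong probe sets, 201 (11.1%) were as high or higher. Among those of like signal, 21.2% had a ratio at least as large in either direction. Mafk (1418616_at), a small Maf protein, read 700 in Smad4 −/− and 430 in Smad4 f/f, 1.63-fold higher, a log2 ratio of 0.70. Of probe sets of like signal, 16.7% had a ratio at least as large. Both kept their sign under all 8 alternatives, with Nfe2 from 0.40 to 0.51 and Mafk from 0.70 to 0.79. Only the changes of scaling could alter these values. Each rests on 1 probe set.

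The other small Maf genes that can take the place of Mafk in NF-E2 were set beside it. Mafg read 3054 in Smad4 −/− and 2660 in Smad4 f/f, a log2 ratio of 0.20, with 0.25 by its second probe set. Maff lay below the floor on both arrays. Of the relatives of Nfe2, Nfe2l1 had a log2 ratio of −0.67 and Nfe2l2, the NRF2 gene of the oxidative stress response, one of 0.15, while Nfe2l3 had a bounded ratio of 0.81. The other probe set of Nfe2l2 gave −0.24. These 3 genes did not share a direction, and all measured relatives of the factors are given here, beyond the 2 that the naming rule takes.

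Among relatives of the factors as a whole, 16 genes were on the array with a single symbol and 8 were measured, none past 2-fold, with a median log2 ratio of 0.18. The bounds of Erg and Nfe2l3 do not show that these genes lie within 2-fold. Gata3, Gata4, Gata5, Zfpm2, Gfi1, Tal2 and Ldb2 lay below the floor on both arrays. Gata6 and Runx3 were near it, with log2 ratios of 0.05 and 0.29, and of 0.60 and −0.09 by their other measured probe sets. Lyl1, a relative of Tal1 that also joins LDB1 complexes, read 1780 in Smad4 −/− and 1436 in Smad4 f/f, a log2 ratio of 0.31.

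Genes for proteins that work in complexes with the factors gave 0 of 26 measured members past 2-fold, with 17 ratios above 0 and 9 below. Mta2 and Runx1t1 are named because their ratios are bounds, which do not show that they lie within 2-fold. The median was 0.14, against −0.02 for all measured genes. With the probe sets of each gene averaged, the list median was 0.07. Gatad2a, of the NuRD repressor complex that FOG1 recruits, and Mafg were the strongest, and Gatad2a had a log2 ratio of −0.32 with probe sets from −0.84 to 0.49. Around TAL1 and LDB1, the bridging gene Lmo2 had a log2 ratio of 0.17. The LDB1-binding genes Ssbp2, Ssbp3 and Ssbp4 had 0.22, 0.38 and 0.88, and the E protein genes Tcf3, Tcf4 and Tcf12 had 0.93, 0.12 and −0.10. These 7 were singled out after their values were seen. The 5 measured probe sets of Tcf4 ran from −0.51 to 0.12, with a mean of −0.27. The 3 of Tcf12 ran from −0.79 to −0.09, with a mean of −0.33. Tcf3, a dimer partner of TAL1, read 662 in Smad4 −/− and 349 in Smad4 f/f on 1 measured probe set of 3.

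Of 16 measured other factors with a role in megakaryocytes, 1 was at least 2-fold lower, beside 3.59% of all measured genes. As many as 0 were 2-fold higher, beside 3.34%, and the median was −0.02. The lower one, Srf, the serum response factor of the actin and myosin programme, read 221 in Smad4 −/− and 632 in Smad4 f/f. Its log2 ratio was −1.52, but its second probe set gave 0.62 and the mean was −0.45. Myb, a factor that holds back megakaryocyte fate, lay below the floor on both arrays. Among 6 measured factors of other blood lineages none passed 2-fold. Ebf1, of B cells, had a log2 ratio of 0.50 and Irf8, of monocytes and dendritic cells, one of −0.17. Klf1, the red cell factor that opposes FLI1, named after its value was seen, read 217 in Smad4 −/− and 269 in Smad4 f/f, and Spi1 lay below the floor on both arrays.

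Of 25 measured genes that the factors are known to act on in megakaryocytes, 0 passed 2-fold. For Pctp, a lipid transfer protein, and Nbeal2, of alpha-granule formation, the ratio is a bound and does not show that they lie within 2-fold. The RUNX1 links of several of them come from work on human cells. Their median log2 ratio was 0.10, with 17 above 0 and 8 below. The lowest was Selp at −0.47, and its 3 probe sets were all lower, from −1.04 to −0.47. Itgb3 had −0.02, with −0.41 by its second probe set, and Gp1bb −0.05, with 0.05 by its second. The strongest by signal were Clec1b, the podoplanin receptor, at −0.08 and Pf4, the alpha-granule chemokine, at 0.04. Known FLI1 and GATA1 targets gave 0.25 for Itga2b, the fibrinogen receptor subunit, 0.18 for Gp9, of the von Willebrand factor receptor, and 0.25 for Gp6, the collagen receptor. Known NF-E2 targets gave −0.11 for Tubb1, the platelet beta-tubulin, 0.37 for the thromboxane synthase Tbxas1 and −0.15 for Rab27b, of dense granule secretion. The 4 probe sets of Rab27b ran from −0.85 to 0.43, with a mean of −0.29. The RUNX1 targets Myl9, a myosin light chain, and Alox12, the platelet lipoxygenase, had 0.22 and 0.15. Pctp, also a RUNX1 target, read 285 in Smad4 −/− and 31.7 in Smad4 f/f, below the floor, at least 1.96-fold higher, a bounded log2 ratio of 0.97 and the highest of the list. Nbeal2 read 196 in Smad4 −/− and 30.0 in Smad4 f/f, at least 1.35-fold higher. With no floor, 3 of 26 target genes passed 2-fold, and those 3 were higher in Smad4 −/−. Myh10, which RUNX1 silences as megakaryocytes mature, lay below the floor on both arrays. These genes, other than Clec1b and Pf4, were named after their values were seen.

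**Figure D4:**
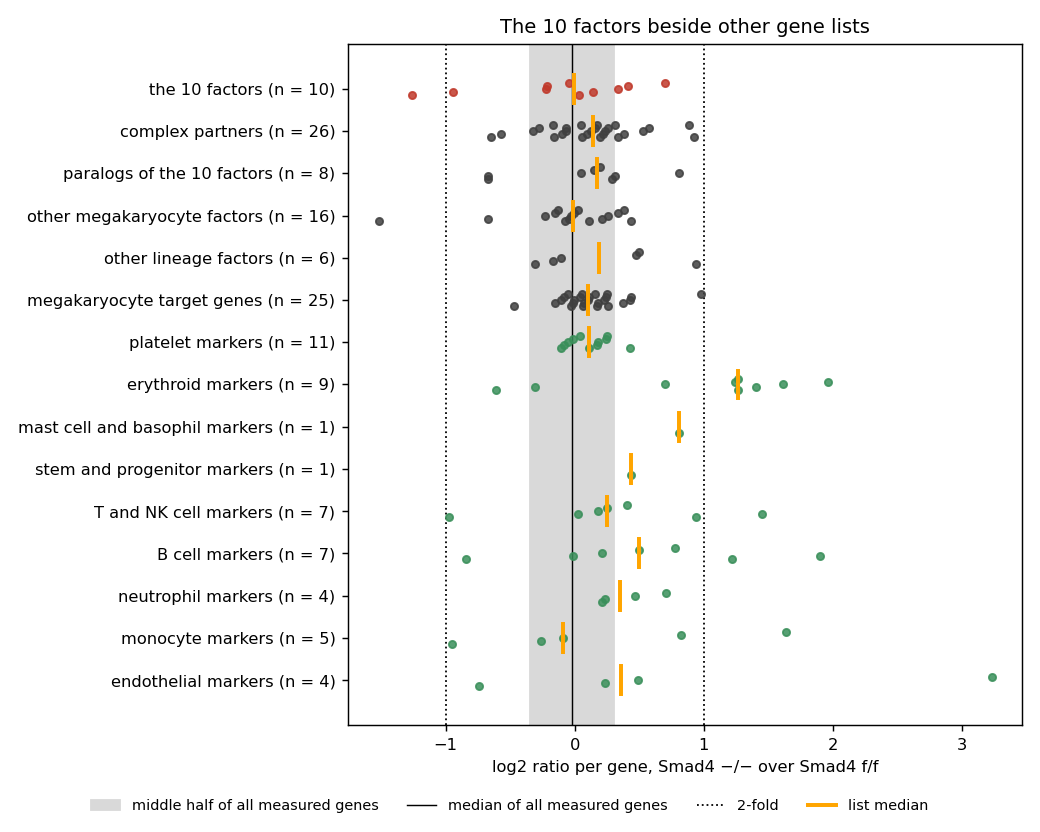
Log2 ratio per gene of Smad4 −/− over Smad4 f/f (x axis) for the 10 factors in red, the other factor and target lists in dark grey and markers of cell types in green, with the number of measured genes in brackets, orange bars for list medians and a grey band for the interquartile range of all measured genes, −0.35 to 0.30. The 25 target genes lie between −0.47 and 0.97. The erythroid markers reach furthest to the right as a group, with 6 of 9 past 2-fold, beside 6.93% of all measured genes, and 2 of the 9 below 0.

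Markers set the factors beside the cells the RNA could come from. Counts of markers past 2-fold stand beside 3.34% of all measured genes higher and 3.59% lower. All 11 platelet markers with a single symbol were measured, within 2-fold, with summed linear signals of 1195500 in Smad4 −/− and 1142360 in Smad4 f/f. Erythroid markers were at least 2-fold higher in 6 of 9 measured genes, with sums of 30097 in Smad4 −/− and 11160 in Smad4 f/f. Fech (13904 in Smad4 −/−, 4551 in Smad4 f/f) and Bpgm (7635 in Smad4 −/−, 2881 in Smad4 f/f) carried most of both sums. Of the 9 genes, 2 had a log2 ratio below 0, Tfrc with −0.61 and Klf1 with −0.31. Hba-a1 and Car1 lay below the floor on both arrays. Gata1, Tal1, Gfi1b, Nfe2, Zfpm1 and Ldb1 are also expressed in red cell precursors. Their log2 ratios, from −1.26 to 0.41, stand beside 1.43 for the erythroid sum, and the part of red cell RNA in them was not tested.

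Of the lymphocyte markers, 1 of 7 measured T and NK cell genes and 2 of 7 B cell genes were at least 2-fold higher, with sums of 15327 and 5048 in Smad4 −/− and of 6914 and 4240 in Smad4 f/f. Cd28 carried most of the T and NK cell sum, at 12825 in Smad4 −/− and 4685 in Smad4 f/f. Over the other 6 genes the sum was 2501 in Smad4 −/− and 2229 in Smad4 f/f, and Cd3d read 181 in Smad4 −/− and 356 in Smad4 f/f. Of the B cell genes, the higher ones were Cr2 (348 in Smad4 −/−, 149 in Smad4 f/f) and Jchain (542 in Smad4 −/−, 136 in Smad4 f/f, below the floor). Blk read 290 in Smad4 −/− and 520 in Smad4 f/f. Cd3e, Cd3g, Cd4, Thy1 and Pax5 lay below the floor on both arrays. Runx1 and Fli1 are expressed in lymphocytes too, and the part of those cells in their values was not tested. Of neutrophil markers 0 of 4 passed 2-fold, with sums of 7482 in Smad4 −/− and 5774 in Smad4 f/f and with Elane, Mpo, Camp and Mmp8 below the floor on both arrays. Of monocyte markers 1 of 5 was higher, with sums of 132310 in Smad4 −/− and 140543 in Smad4 f/f and with Cd14 and Ccr2 below the floor on both. Lyz2 carried most of both sums, at 131259 in Smad4 −/− and 139723 in Smad4 f/f. The other measured monocyte genes went in both directions, with log2 ratios from −0.95 to 1.64. Endothelial cells also express Fli1, Erg, Gata2 and Tal1. Of 4 measured endothelial markers 1 was higher and the sums were 3474 in Smad4 −/− and 1761 in Smad4 f/f, with Tek, Emcn and Tie1 below the floor on both arrays. The higher one, Flt1, read 1361 in Smad4 −/− and 74.95 in Smad4 f/f, below the floor, and the log2 ratios of its 4 probe sets ran from −0.16 to 3.23. Without it the sums were 2112 in Smad4 −/− and 1686 in Smad4 f/f.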

How the data were processed

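Biotin-labelled cRNA was made from platelet total RNA with a 3' IVT kit for Affymetrix Mouse Genome 430 2.0 arrays, per the labels. The deposited table gives 1 log2 signal for each probe set on each array. Per the submitters' processing notes the tool was MAS5, without a stated version or setting. The log2 scale was read from the values: antilogs, trimmed by 2% at each end, average 500.01 on both arrays. 

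Of 45037 probe sets that are not controls, 34945 have 1 gene symbol in the platform annotation, 932 have several and 9160 none; none with several named a factor. Symbols were checked through Entrez IDs in a RefSeq table of GRCm38.p6 (34741 matched, 0 changed). All steps ran over the whole table with Python 3.11.15, numpy 2.4.6, pandas 2.3.3 and statsmodels 0.14.6.

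No test was run, since each genotype has a single array. The factors, gene lists, floor, 2-fold rule, naming rule and the cutoff of 12 for strong signal were chosen with earlier results of these data known. Named were all 10 factors with every probe set. In each other list up to 4 genes past 2-fold were named or, where none passed, the 2 with the highest mean signal, with exceptions stated. Of marker lists counts, sums and markers below the floor are given. Hdc, Mecom, Fech, Bpgm, Tfrc, Cd28, Cd3d, Cr2, Jchain, Blk, Lyz2 and Flt1 were named after their values were seen. Probe sets of like signal lie within 0.5 log2 units of a mean signal. Alternatives were median centring, quantile normalisation, loess of ratio against signal (span 0.3), a floor at the 50th percentile, at the 75th or absent, averaging the probe sets of a gene, dropping those with the suffix _s_at or _x_at, and thresholds of 1.5-fold and 3-fold. The ratio steps were run on simulated data, with changes set only in genes with a probe set of mean log2 signal 9 or more. That run does not cover weak or bounded ratios such as that of Ldb1.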

Additional observations from a re-analysis of the deposited data

How the results depend on the processing

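No paired analysis was possible because each genotype has 1 array. The log2 ratios of the 10 factors were recomputed under 8 alternatives. Of 80 values, 77 moved by less than the pooled SD of 0.48 and 3 moved further. Those 3 were all of Ldb1 under another floor, as given above, and the floor sets that bound by construction. Many of the 77 could not move, so the count does not measure stability. Another floor left every factor but Ldb1 unchanged. Averaging left genes with 1 measured probe set unchanged, and dropping probe sets by suffix altered no factor. Tal1 changed sign under quantile normalisation (−0.003), Gata2 under median centring (0.05) and the mean of probe sets (0.25), and Runx1 under the mean of probe sets (0.10). The count of factors past 2-fold, 1, became 0 with a 75th percentile floor or a 3-fold rule, and 3 at 1.5-fold (Ldb1, Fli1 and Mafk).

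Over all measured genes, 789 passed 2-fold, against 1457 with a 50th percentile floor, 321 with a 75th percentile floor, 5806 with no floor, 2849 at 1.5-fold and 105 at 3-fold. With median centring 481 genes were higher and 326 lower, against 380 and 409 as deposited. Complex partners, 0 past 2-fold, gave 1 with median centring, 1 with a 50th percentile floor, 2 with no floor and 3 at 1.5-fold. Relatives of the factors, also 0, gave 1 with a 50th percentile floor, 5 with no floor and 3 at 1.5-fold. Other megakaryocyte factors, 1 past 2-fold, gave 2 with a 50th percentile floor, with no floor and at 1.5-fold, and 0 with the mean of probe sets or at 3-fold. Factors of other lineages, 0, gave 1 with median centring, 4 with no floor and 1 at 1.5-fold. Target genes, 0, gave 1 with median centring, quantile normalisation, a 50th percentile floor and 1.5-fold, and 3 with no floor. The spread between mice and between arrays of a genotype cannot be had from these data, and weak signals limit Ldb1 and the weakest Runx1 probe set most.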
